A study of Rattus norvegicus with 24 samples.

Results

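The late-onset genes of wild-type rat sciatic nerve were 188 genes of the 32402 in the count table whose mRNA level was at least 3 times higher at postnatal day 18 than at either earlier age. They were selected on the libraries labelled wild-type (Wt): the mean at postnatal day 18 (P18) had to reach 10 normalized CPM (read counts scaled for depth) and 3 times the means at both postnatal day 6 (P6) and embryonic day 21 (E21). Their rise in Wt is therefore how they were chosen and not a result. What the choice did not use is their course in the libraries labelled Pmp22 transgenic (Tg), and that course is the subject here. The Tg rat carries Pmp22, a gene of compact myelin, in addition to its own copies and is a model of the neuropathy CMT1A, and whole nerves do not separate Schwann cells from the other cells of the tissue. RNA came from sciatic nerves without their epineurium, in 4 biological replicates per genotype and age (E21 Wt, E21 Tg, P6 Wt, P6 Tg, P18 Wt and P18 Tg), and no rats were treated. CPM is not corrected for gene length, so levels of different genes are not compared, and CPM across genes served only to choose genes to name.

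The peripheral nerve changes its task over these ages. Around birth Schwann cells sort axons and begin to wrap them, in the first postnatal weeks they lay down compact myelin, and later growth is replaced by maintenance of the sheath, its contacts with the axon and the basal lamina. Fibroblasts, perineurial cells, vessels and resident macrophages mature in the same weeks and contribute RNA to a whole nerve, in which fewer cells of a type and less RNA per cell cannot be told apart.

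Total counts ran from 9700644 to 25164922 per library. At P18 the libraries labelled Tg had 24640 ± 576 normalized CPM of Pmp22 against 45660 ± 820 for the label Wt (SD, n = 4 each), so that the targeted gene stood at 54.0% of Wt and ran against the label at this age. At the earlier ages its mean was higher under the label Tg, with 1558 ± 114 against 1306 ± 62 at E21, without overlap, and 24840 ± 1160 against 23100 ± 602 at P6, where the ranges met (23980 to 26460 and 22670 to 23990). AC130064.1, singled out after its values were seen, had 7 or more counts in all libraries labelled Tg and no more than 1 in those labelled Wt. Directions are accordingly given between libraries by their labels. Skeletal muscle markers, with all 19 of 19 listed genes outside the 188, summed to between 35.5 and 3130 CPM in E21 Wt and between 46.8 and 5340 in E21 Tg, against at most 678 in any P6 or P18 library, and 8 of 8 erythrocyte markers, also outside the 188, summed to between 12500 and 43000 CPM in E21 Wt and between 13300 and 29700 in E21 Tg, against 1140 to 1980 in P6 Wt and 1020 to 2980 in P6 Tg. The part of muscle and blood in comparisons with E21 was not tested. The scaling factors were 0.849 to 0.872 in P18 Wt and 0.983 to 1.11 in all other libraries.

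The promoters of a few of these genes are shown first, because the MHC class II genes rose together in Tg and had P18 means above Wt, and because Myoc had the steepest onset. The sequences are from RefSeq on GRCr8, a later assembly than the rn6 used for the counts. Of 186 distinct symbols, 183 matched a RefSeq gene and 149 had a promoter window of 250 bases before to 50 bases after the start. In the 4 classical class II genes the 7 letters TGATTGG, which contain the inverted CCAAT box known as the Y box of class II promoters, stood on the sense strand. They began 45 bases before the start in RT1-Ba (chr20:4576957-4577046, plus strand), 63 in RT1-Bb (chr20:4604129-4604218, minus strand), 51 in RT1-Da (chr20:4515315-4515404, plus strand) and 82 in RT1-Db1 (chr20:4560173-4560262, minus strand). Each line gives 90 bases, from 100 to 11 bases before the start, 5′ to 3′ on the gene's strand, with TGATTGG in capitals.
RT1-Ba: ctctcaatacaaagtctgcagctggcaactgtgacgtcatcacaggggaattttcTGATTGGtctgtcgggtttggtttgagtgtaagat
RT1-Bb: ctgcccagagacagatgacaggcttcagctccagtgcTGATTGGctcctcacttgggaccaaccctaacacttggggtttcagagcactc
RT1-Da: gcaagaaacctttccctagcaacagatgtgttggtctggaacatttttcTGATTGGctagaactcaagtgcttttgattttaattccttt
RT1-Db1: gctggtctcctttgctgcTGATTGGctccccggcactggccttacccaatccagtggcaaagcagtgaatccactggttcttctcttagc

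Searched on both strands, TGATTGG was in 7.06% of all 33469 promoter windows and in 7.74% of the 168 windows of the late-onset genes. Myoc, the gene of the secreted glycoprotein myocilin, had the letters TATAAA beginning 26 bases before its start (chr13:77509863-77509952, plus strand), shown in capitals in the same stretch from 100 to 11 bases before the start.
Myoc: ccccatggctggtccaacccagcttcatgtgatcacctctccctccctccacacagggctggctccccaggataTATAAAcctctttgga

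TATAAA was in 14.2% of all windows and in 14.3% of those of the late-onset genes. The other 3 motifs searched were ACAAAG (18.8% of all windows, 14.3% of the genes' windows), AGGTCA (16.2% and 19.0%) and CACGTG (6.42% and 7.74%), again on both strands. A match describes the letters in a window and does not show a bound site. In the order of RefSeq protein-coding genes, 17 of the 183 matched genes stood directly beside another of them, in 9 neighbouring pairs. The pairs included RT1-Db1 with RT1-Ba, RT1-Ba with RT1-Bb, Col4a3 with Col4a4, Prelp with Fmod, C2 with Cfb and Ndp with Maob. How often genes outside the set stand beside each other was not taken, so nothing is read from this count.

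Almost the whole set rose in Tg as well. From P6 to P18, 181 of the 188 genes were called higher in the libraries labelled Tg (96.3%), where 17.9% of the 15951 genes tested were called higher. A single gene, Scd1, was called lower (17.9% of all tested genes were lower), and 6 were not called. Their median log2 fold change was 1.84, against -0.0094 over all genes tested. All 188 passed the filter on low counts, which their level in P18 Wt alone can ensure. In 176 of them all 4 P18 Tg libraries lay above all 4 P6 Tg libraries, which held for 19.5% of all genes tested. These calls are from edgeR (quasi-likelihood F test, Benjamini-Hochberg adjusted over all genes tested), and the p-values measure the spread between these samples.

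The step before P6 was less uniform. From E21 to P6 in Tg, 119 of the 188 genes were higher (26.5% of all genes tested) and 18 were lower (27.7%), with a median log2 fold change of 0.85 against 0.0032 over all genes. The 18 included Abcg2, a drug efflux pump of the endothelium, Fgl2, Gfap, Dpt, Cd74 and the 4 RT1 genes. Between E21 and P18, 187 genes were higher (33.2% of all genes tested) and 0 were lower (31.2%), likewise 0 at an unadjusted p under 0.05 in edgeR and 0 in DESeq2. The exception was again Scd1, with a log2 fold change of 0.77 (adjusted p = 0.087, edgeR).

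**Figure D1:**
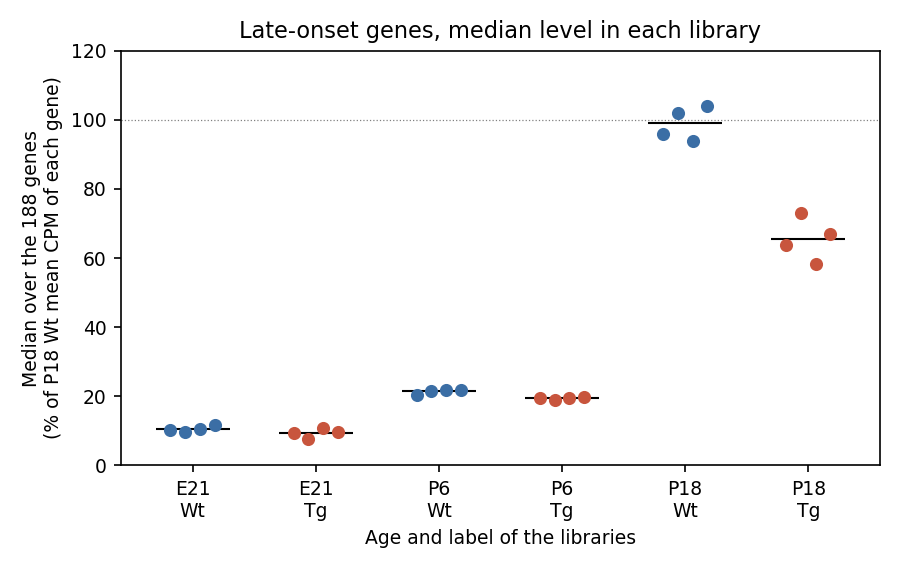
Median level of the 188 late-onset genes in each library, as a percentage of each gene's mean CPM in P18 Wt (y axis) by age and label (x axis). Points are libraries (blue Wt, red Tg) and bars are means of 4. P18 Tg libraries lie between 58.3% and 72.9%, and P6 libraries of both labels between 18.8% and 21.9%.

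The level reached at P18 was lower in most of them. Taken over the 188 genes, the median of a library was 9.67% to 11.6% of the P18 Wt mean in E21 Wt, 7.69% to 10.9% in E21 Tg, 20.4% to 21.9% in P6 Wt and 18.8% to 19.8% in P6 Tg, and the plot of library medians shows these values. At P18 it was 93.9% to 104% in Wt, which the selection fixes, and 58.3% to 72.9% in Tg. The genes' median log2 ratio of Tg to Wt went from -0.083 at E21 through -0.14 at P6 to -0.58 at P18, where all genes tested had 0.023. At P18 157 of the 188 means were below Wt and 31 above. In 54 the Tg mean was under 50% of Wt, and in 9 it was above 1.5 times Wt. All 4 Tg libraries lay below all 4 Wt libraries in 94 genes (11.0% of all genes tested lay so) and above them in 8 (12.4%). As the P18 Wt libraries chose the genes, these ratios are descriptions and were not tested. With libraries scaled to total counts alone, the P18 median of all genes tested moved up by 0.223 and that of the 188 genes to -0.354. The genes below all Wt libraries went from 94 to 72 of the same genes (51 of the 136 genes that this scaling would choose). The share of all genes tested that lay so under this scaling was not taken, so these counts have no background beside them. Means above Wt went from 31 to 58. The 27 genes that came to lie above Wt had stood between 85.6% and 99.6% of it, Dcn, Col4a4, Abcb4, Slc2a1, Gsn and Fgl2 among them. Genes above all Wt libraries then included Cd74, RT1-Ba and RT1-Db1 as well.

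The same rule applied to the Tg libraries found 155 genes. Of these, 89 were shared, which is 47.3% of the 188 and 57.4% of the 155. The genes found by the rule in Tg had a median log2 ratio of Tg to Wt at P18 of 0.28, opposite in sign to the -0.58 of the genes found in Wt. The part of the choice of libraries in either sign was not tested. The 89 shared genes had a median of -0.18, the 99 found in Wt alone -0.88 and the 66 found in Tg alone 1.21. Just inside the limit in Wt stood Dcn (3.0 times the larger earlier mean), Sgk1 (3.02) and C1s (3.05), and just outside it Ccl6 (2.99), Klf9 (2.99) and Gng8 (2.98).

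**Figure D2:**
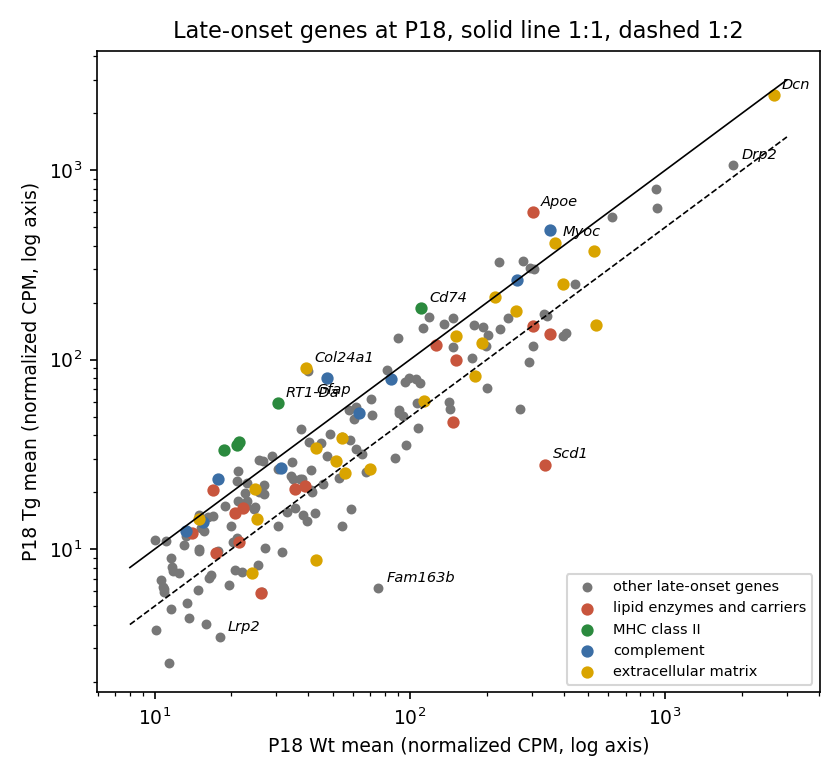
Mean normalized CPM in P18 Wt (x axis) against P18 Tg (y axis) for the 188 genes, both on log axes, each point a gene and each mean over 4 libraries. Most points lie between the line of equality and the dashed line at 50% or below it, while Apoe, Gfap, Col24a1 and the MHC class II genes lie above equality.

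Slc22a3 marks the set. It encodes an organic cation transporter of broad specificity. In Wt it had 0.145 to 0.402 CPM at E21, 0.233 to 0.657 at P6, and 10.3, 8.86, 9.81 and 13.5 at P18. In Tg it had 0.197, 0.361, 0.578 and 0.400 CPM at P6 and 6.59, 8.06, 5.92 and 6.82 at P18. The P18 Tg libraries were all above the P6 Tg libraries and all below the P18 Wt libraries. With libraries scaled to total counts alone, the P18 Tg and P18 Wt libraries overlapped. From P6 to P18 in Tg the log2 fold change was 4.12 (standard error 0.32, adjusted p = 1.2e-09, edgeR's quasi-likelihood test), from 3 to 10 counts a library at P6. The P18 Tg mean was 64.5% of Wt and remained under the 10 CPM of the rule.

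Transporters formed a group of 11, and all 11 rose from P6 to P18 in Tg, with a median log2 fold change of 3.31. Slco1a4, an organic anion transporter of brain endothelium, had 46.8, 52.0, 65.5 and 68.5 CPM in P18 Wt and 37.3, 38.3, 37.3 and 38.2 in P18 Tg, up from at most 3.12 in P6 Tg. The P18 groups did not overlap, and the Tg libraries were nearly equal among themselves. Slc6a13, a carrier of GABA and taurine, had 0.328 to 0.761 CPM in P6 Tg and 26.4, 16.6, 25.3 and 23.2 in P18 Tg, within the Wt range of 13.8 to 25.9 but for the highest. Its rise in Tg was 5.19 on the log2 scale (standard error 0.77, adjusted p = 1.3e-05, edgeR). Abcb4, a phosphatidylcholine flippase of bile canaliculi, reached 48.2 to 59.1 CPM in P18 Tg and 47.0 to 75.4 in P18 Wt, whereas the zinc and manganese carrier Slc39a8 reached 43.8% of Wt and Slco3a1 42.4%. Slc2a1, the glucose carrier of perineurium and endothelium, stood at 85.6%, and Slc13a3, a dicarboxylate carrier, at 48.5%. Abcg2 fell from E21 to P6 in Tg before it rose, to 54.0% of Wt at P18, and Slc16a11, a monocarboxylate carrier, reached 77.6%. Over the whole list of solute carrier and ABC transporter genes, 82 of 316 tested rose and 43 fell in Tg, with a median of 0.10. Of that list, 10 were late-onset genes. Over all genes tested, 17.9% rose, 17.9% fell and 1.18% were late-onset, the shares that stand beside this list and each list below. Of 16 other endothelial and mural markers, the summed level was 1310 to 1730 CPM in P18 Wt and 1070 to 1340 in P18 Tg, none at 0, and its part in Slco1a4 and in the tight junction gene Cldn5 (71.8% of Wt) was not tested.

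**Figure D3:**
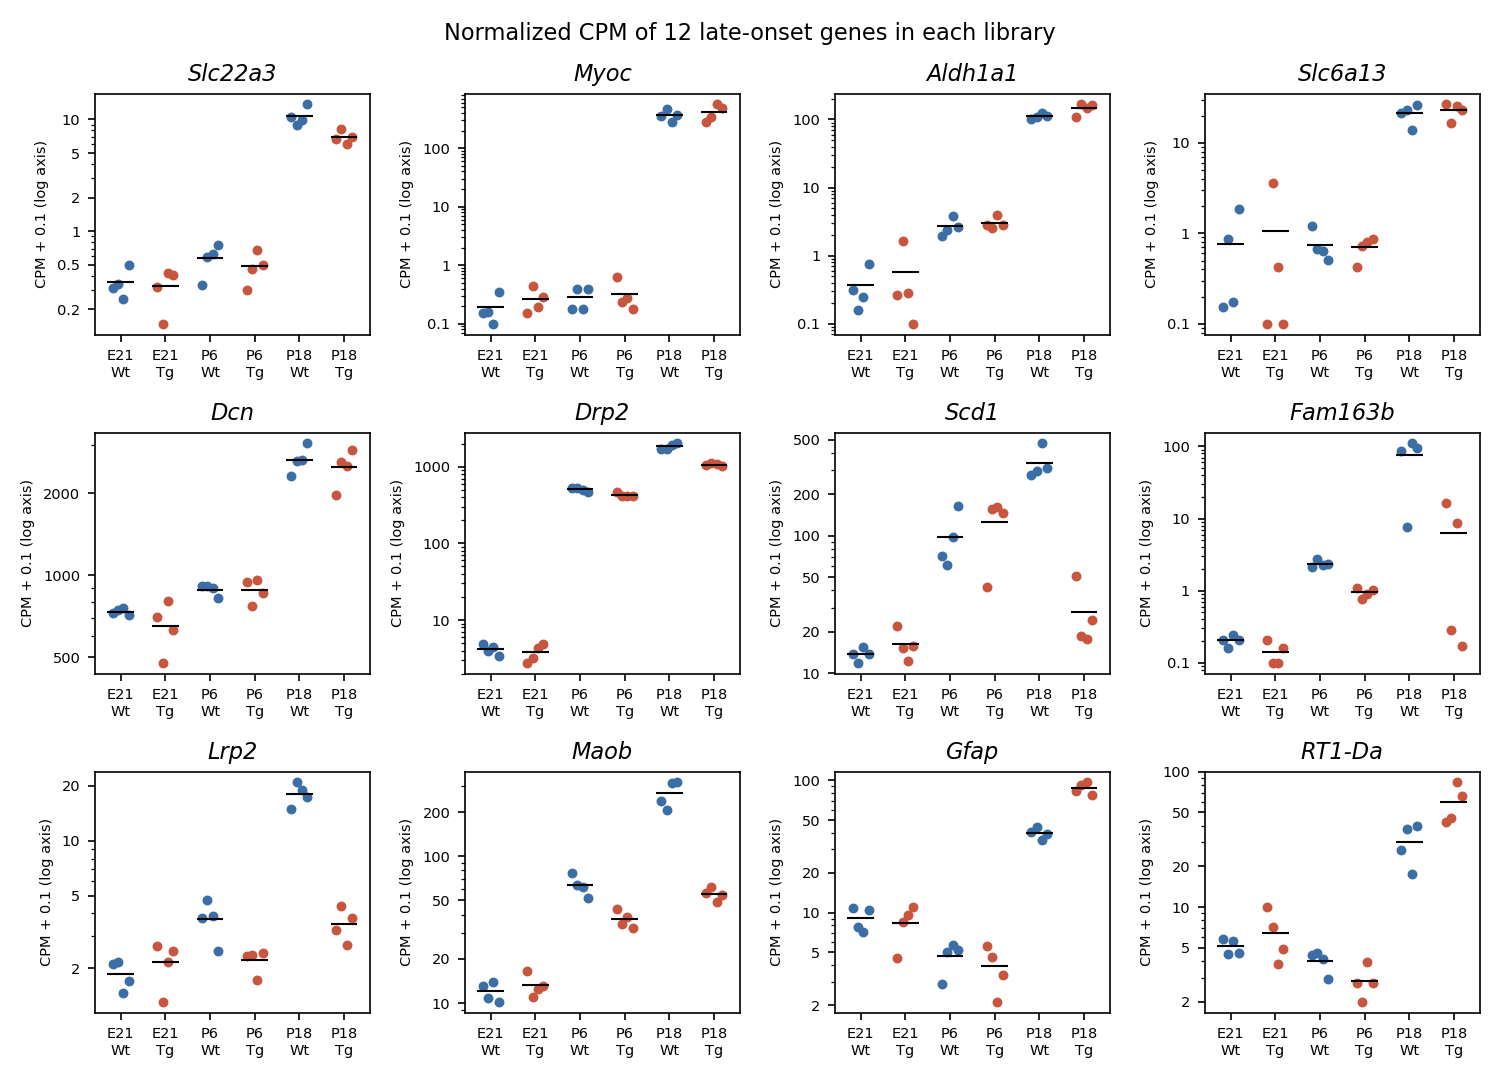
Normalized CPM plus 0.1 of 12 late-onset genes in every library (y axes, log scale, each with its own range) by age and label (x axes). Blue points are Wt libraries, red points Tg libraries and bars means of 4. Scd1 is lower at P18 than at P6 in Tg, and Gfap and RT1-Da have all P18 Tg libraries above all P18 Wt libraries.

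Extracellular matrix genes were the largest group, with 22 members, and all 22 rose in Tg. Myoc went from 2 to 8 counts a library in P6 Tg to 279, 345, 558 and 478 CPM in P18 Tg, beside 355, 476, 285 and 362 in P18 Wt, and the P18 groups overlapped. Its fitted log2 fold change in Tg of 11.0 (standard error 0.35, adjusted p = 1.4e-15, edgeR) rests on those few counts at P6. Dcn, the collagen-binding proteoglycan decorin, had 1980, 2600, 2520 and 2890 CPM in P18 Tg and 2310, 2640, 2650 and 3050 in P18 Wt, again overlapping. Col4a3 and Col4a4, neighbouring genes of a basement membrane collagen, reached 84.3% and 88.1% of Wt and rose by 3.32 and 2.65 on the log2 scale in Tg.

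Lect1 and Col23a1 had all P18 Tg libraries below all P18 Wt libraries. Lect1, which encodes chondromodulin, had 86.2, 88.8, 104 and 93.1 CPM in P6 Tg and 163, 183, 139 and 128 in P18 Tg, against 623, 541, 489 and 496 in P18 Wt. Its 2 P18 groups were far apart, although at P6 Tg had a mean of 92.95 CPM and Wt of 83.27. Col23a1, a transmembrane collagen, had 9.40, 12.3, 5.32 and 8.21 CPM in P18 Tg and 60.5, 49.7, 28.1 and 33.6 in P18 Wt, 20.5% of Wt. Col24a1, a fibrillar collagen, ran the other way, with 85.8, 97.2, 95.0 and 81.9 CPM in P18 Tg and 40.0, 44.7, 32.4 and 39.7 in P18 Wt, the highest ratio of all 188 at 2.30. The small proteoglycans Fmod and Prelp stood at 71.1% and 63.0%, dermatopontin (Dpt) at 69.6% and matrix Gla protein (Mgp) at 71.2%. The 2 genes named Ecm2 stood at 56.9% and 79.4%. Mgp and the second Ecm2 gene overlapped between the labels at P18. The levels of the Ecm2 genes are uncertain because reads are divided between genes of like sequence. Of the 17 genes in the fibroblast and matrix list, 11 rose and 1 fell in Tg.

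Most of the late-onset genes of lipid metabolism rose in Tg, and Scd1 alone among them fell. This holds for the late-onset genes only, as more genes fell than rose in the whole cholesterol and fatty acid lists given below. Of 16 genes for lipid enzymes and carriers, 14 rose in Tg, 1 fell and 1 was not called, and their median ratio of Tg to Wt at P18 was 0.567. Scd1, the desaturase that makes monounsaturated fatty acids and a gene of myelin lipid synthesis and of fat, had 42.3, 155, 161 and 147 CPM in P6 Tg and 51.1, 18.6, 17.5 and 24.3 in P18 Tg. In Wt it had 71.4, 61.1, 98.5 and 163 CPM at P6 and 276, 295, 468 and 309 at P18. All P18 Tg libraries were below all P18 Wt libraries, and one P6 Tg library, replicate 1, lay within the P18 Tg range. The log2 fold change from P6 to P18 in Tg was -2.19 (standard error 0.38, adjusted p = 8e-05, edgeR's quasi-likelihood test), and the P18 mean was 8.28% of Wt. Apoe, the lipid carrier of lipoproteins, had 661, 620, 580 and 544 CPM in P18 Tg and 375, 326, 272 and 237 in P18 Wt, with no overlap.

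Mgll, the lipase of monoacylglycerols, had 85.0 to 88.2 CPM in P6 Tg and 152, 140, 123 and 133 in P18 Tg, against 368, 366, 343 and 341 in P18 Wt. Its rise in Tg, 0.66 on the log2 scale (standard error 0.09, adjusted p = 3.4e-06, edgeR), left it at 38.6% of Wt, with no overlap between labels. The phospholipase gene Pla2g5 stood at 22.5% and Pla2g16 at 49.8%, and the phosphoinositide kinase gene Pip4k2a at 32.0%. Nr1h3, the oxysterol receptor LXRα, stood at 122%. The lists of cholesterol and of fatty acid genes held 0 of 25 and 2 of 29 late-onset genes, where 1.18% of all genes tested were late-onset. In Tg 23 of the 25 cholesterol genes and 11 of the 29 fatty acid genes fell from P6 to P18, and 0 and 4 rose.

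Of the genes that were not called in Tg, Cidec and Tusc5 are genes of fat cells. Cidec, which coats lipid droplets, had 5.64, 9.75, 8.49 and 10.5 CPM in P6 Tg and 25.6, 22.3, 4.54 and 9.95 in P18 Tg, and the ages overlapped (log2 fold change 0.85, standard error 0.44, adjusted p = 0.15, edgeR). Tusc5 had 11.6, 19.1, 18.2 and 18.8 CPM in P6 Tg and 41.2, 30.7, 13.2 and 19.5 in P18 Tg. Thrsp, a regulator of fatty acid synthesis, had 0.722, 2.84, 3.29 and 2.84 CPM in P6 Tg and 20.5, 13.9, 2.63 and 6.47 in P18 Tg, and was called higher (log2 fold change 2.14, adjusted p = 0.016, edgeR), a call that was lost without P18 Tg replicate 1 (1.64, adjusted p = 0.078). The carboxylesterase gene Ces1d had 1.31, 1.08, 0.866 and 1.32 CPM in P6 Tg and 35.6, 18.6, 3.11 and 8.91 in P18 Tg and was also called higher (3.83, adjusted p = 1.4e-05, edgeR). In each of these 4 genes, P18 Tg replicates 1 and 2 were high and replicates 3 and 4 low. The other 15 of 17 adipocyte markers summed to 1330, 933, 367 and 501 CPM in these P18 Tg replicates 1 to 4, to 717 to 1210 in P6 Tg and to 1190 to 1800 in P18 Wt, with Ucp1 at 0 in both P18 groups. The part of fat cells in these genes and in Scd1 was not tested, and the labels state that the epineurium was removed. Cidec was the only one of the 188 genes in which a P18 Wt library lay within the range of earlier Wt libraries.

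The remaining genes that were not called in Tg were Ankef1, Aox3, Igflr1 and Mrgprb3. Igflr1, a receptor of the IGF-like family, had 4.14, 3.34, 3.41 and 4.41 CPM in P6 Tg and 4.90, 3.65, 3.88 and 3.69 in P18 Tg, against 14.3, 16.6, 19.1 and 13.5 in P18 Wt. Its log2 fold change in Tg was 0.07 (standard error 0.22, adjusted p = 0.84, edgeR), after a rise of 1.95 from E21 to P6. Aox3, an aldehyde oxidase, had a log2 fold change of 0.54 (adjusted p = 0.075, edgeR) and was called higher without P18 Tg replicate 3 (0.74, adjusted p = 0.0098). Mrgprb3, a Mas-related receptor, had 0.70 (adjusted p = 0.15). It is known from mast cells, and 10 mast cell markers, none of them among the 188, summed to 262 to 509 CPM in P6 Tg, 202 to 276 in P18 Tg and 305 to 414 in P18 Wt, with none at 0. Of these 10, 6 fell in Tg from P6 to P18, and the part of mast cells in Mrgprb3 was not tested. Ankef1 had 6.27, 13.4, 2.87 and 1.81 CPM in P18 Tg, a wider spread than its 11.6 to 17.1 in P18 Wt. Its P18 Tg replicates 1 and 2 were above replicates 3 and 4, as in Cidec and Tusc5. The part of fat cells in Ankef1 was not tested.

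Receptors and signalling enzymes counted 13 genes, of which 11 rose and 2, Igflr1 and Mrgprb3, were not called. Among the 11, Ptpru overlapped between P6 and P18 in Tg (log2 fold change 0.739, adjusted p = 0.042, edgeR). Its call was lost in several fits with a library left out, such as without P18 Tg replicate 1 (adjusted p = 0.15, edgeR). Lrp2, the large endocytic receptor megalin, had 2.23, 2.26, 1.62 and 2.32 CPM in P6 Tg and 3.13, 4.28, 2.57 and 3.69 in P18 Tg, against 14.8, 20.8, 18.9 and 17.4 in P18 Wt. The ages did not overlap in Tg, yet the rise was small, 0.69 on the log2 scale (standard error 0.23, adjusted p = 0.021, edgeR), and the call was lost when P6 Tg replicate 3 or P18 Tg replicate 2 was left out (adjusted p = 0.072 and 0.087). Ret, the receptor tyrosine kinase of the GDNF family ligands, had 6.75, 6.87, 10.8 and 8.49 CPM in P18 Tg and 28.4, 28.4, 27.2 and 17.7 in P18 Wt. It rose by 3.13 in Tg and stood at 32.4% of Wt. Adcy8, a calcium-stimulated adenylyl cyclase, stood at 33.1%, the neuropeptide Y receptor Npy1r at 47.6% and the thyroid hormone receptor Thrb at 54.8%, while the phosphodiesterase Pde4c (89.5%) and the interleukin-6 receptor Il6r (87.2%) were near Wt.

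Secreted factors gave 10 genes, and all 10 rose. Cntf, a neurotrophic cytokine of myelinating Schwann cells, had 19.8, 15.5, 18.4 and 15.3 CPM in P6 Tg and 127, 148, 138 and 139 in P18 Tg, against 378, 364, 444 and 445 in P18 Wt. Its log2 fold change in Tg was 3.0 (standard error 0.11, adjusted p = 5.8e-15, edgeR), and at 33.8% of Wt it still met the rule in Tg. Spp1 (osteopontin) had 91.1, 109, 107 and 79.4 CPM in P18 Tg and 256, 271, 233 and 417 in P18 Wt, and Fgf1, a growth factor without a signal peptide, stood at 38.9%. Both lay below Wt without overlap. The guidance molecule Slit2 stood at 66.2%, Il33, an alarmin of stromal nuclei, at 80.5% and Ntn4, a netrin of basement membranes, at 83.9%.

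Oxidoreductases and detoxification enzymes counted 17 genes, 16 of which rose. Their median ratio of 0.547 was the lowest of the groups, nearly tied with 0.548 in receptors and signalling enzymes. The called rise of Cyp2j4 (log2 fold change 0.624, adjusted p = 0.041, edgeR) was lost in several alternatives, total counts alone among them (adjusted p = 0.056, edgeR). Aldh1a1, a retinaldehyde dehydrogenase, had 2.76, 2.48, 3.87 and 2.68 CPM in P6 Tg and 110, 166, 149 and 164 in P18 Tg, overlapping with 102 to 124 in P18 Wt. Its rise of 5.65 (standard error 0.34, adjusted p = 2.3e-11, edgeR) was the second largest called in Tg. Maob, which oxidizes amines at the outer mitochondrial membrane, had 43.5, 34.6, 38.2 and 32.3 CPM in P6 Tg and 56.2, 61.6, 48.4 and 54.1 in P18 Tg, against 238, 208, 316 and 318 in P18 Wt. Its P6 Tg libraries were already below the P6 Wt libraries (52.1 to 76.7), and at P18 it stood at 20.4%. Akr1b1, the aldose reductase, stood at 33.4%, Cyb561 at 24.5%, Nqo1 at 46.6% and the metallothionein gene Mt3 at 52.3%.

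Genes of the cytoskeleton and membrane scaffold counted 12, and all 12 rose. Drp2, which links dystroglycan to periaxin at the abaxonal Schwann cell membrane, had 461, 419, 409 and 409 CPM in P6 Tg and 1040, 1120, 1080 and 1020 in P18 Tg, against 1710, 1720, 1930 and 2010 in P18 Wt. The P18 groups were separate and the Tg libraries were close to each other. The spectrin genes differed from each other: Sptb stood at 35.7% of Wt, whereas Sptbn5 had a mean of 302.5 CPM in P18 Tg and 305.1 in P18 Wt, 99.2%. Gsn, which severs actin filaments, stood at 91.6% and Cav2, a caveolin, at 49.7%. Gfap, an intermediate filament gene of non-myelinating and repair Schwann cells, had 82.4, 92.8, 96.2 and 77.3 CPM in P18 Tg and 40.4, 44.5, 35.6 and 39.4 in P18 Wt, with no overlap. It fell from E21 to P6 in Tg by 1.12 on the log2 scale and then rose by 4.51 (standard error 0.27, adjusted p = 1.5e-11, edgeR). Of the 14 tested genes in the immature and repair Schwann cell list, 7 rose and 1 fell in Tg from P6 to P18, and Gfap was the only late-onset gene among them. Of the 22 genes in the myelin sheath list 0 were late-onset genes, where 1.18% of all genes tested were late-onset. Of the 22, 8 rose and 4 fell, against 17.9% of all genes tested in each direction.

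Ion channel subunits gave 5 genes, which all rose. Hcn4, a channel gated by hyperpolarization and cyclic nucleotides, had 22.6, 18.8, 28.9 and 23.6 CPM in P18 Tg and 34.1, 44.2, 27.2 and 45.7 in P18 Wt, which overlapped. Cacnb3, a calcium channel subunit, stood at 40.6%, and Kcna5, a potassium channel subunit, at 84.7%.

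The MHC class II genes had P18 Tg means above Wt, and RT1-Da was the only one of the 5 without overlap in the scaling used here. With libraries scaled to total counts alone, Cd74, RT1-Ba and RT1-Db1 did not overlap either. Cd74, the invariant chain, had 141, 132, 279 and 194 CPM in P18 Tg and 102, 135, 92.0 and 112 in P18 Wt, and the groups overlapped by a single pair of libraries. RT1-Da had 42.4, 45.3, 83.1 and 66.4 CPM in P18 Tg and 26.5, 37.5, 17.6 and 39.9 in P18 Wt. RT1-Bb had 38.8, 34.4, 58.6 and 14.5 CPM in P18 Tg and 14.3 to 28.1 in P18 Wt, so that 1 Tg library lay at the bottom of the Wt range, and RT1-Ba and RT1-Db1 overlapped as well. P18 Tg replicate 3 was the highest library in Cd74 and in each of the 4 RT1 genes. P18 Wt replicate 3, the library with the fewest counts, was the lowest P18 Wt library in Cd74, RT1-Da and RT1-Db1. In RT1-Ba and RT1-Bb the lowest was P18 Wt replicate 1. The percentages of Wt given here were not taken without a Wt library. All 5 genes fell from E21 to P6 in Tg and rose to P18, Cd74 by 4.33 (standard error 0.25, adjusted p = 1.3e-11) and RT1-Da by 4.44 (standard error 0.32, adjusted p = 3.4e-10, edgeR). The P18 Tg means were 169% to 195% of Wt. Without P18 Tg replicate 3, a setting added after seeing the data, they were 137% to 169%, and all 5 genes were still called higher than at P6. These are the genes whose promoter windows are printed above, except Cd74. Of the 16 genes in the antigen presentation list, 14 rose and 0 fell in Tg. The 14 macrophage markers, none of them among the 188, summed to 574 to 695 CPM in P18 Tg and 408 to 481 in P18 Wt, and to 359 to 530 in P6 Tg, with none at 0. The 11 lymphocyte markers, none of them among the 188, summed to 19.0 to 24.6 CPM in P18 Tg, 10.8 to 17.2 in P18 Wt and 15.9 to 22.6 in P6 Tg, with Ms4a1 at 0 in P18 Tg and the highest sum in P18 Tg replicate 3. The 8 erythrocyte markers summed to 2030 CPM in that library and to 98.8 to 358 in the other P18 Tg libraries. The part of these cells in the MHC class II genes was not tested. RT1 genes resemble each other, so their single levels are uncertain.

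With the scaling used here, complement genes were the group closest to Wt at P18, with a median ratio of 0.943. All 9 rose and met the rule in Tg as well. With total counts alone Cfb, whose ratio is that median, moved from -0.0838 to 0.146 on the log2 scale. The ranking of the groups is therefore given for the main scaling only. C1s, the protease of the first component, had 401, 475, 501 and 560 CPM in P18 Tg and 335, 403, 282 and 394 in P18 Wt. Only the lowest Tg library overlapped with Wt. Serping1, the inhibitor of C1s, reached 223 to 295 CPM in P18 Tg and 209 to 303 in P18 Wt. C7, part of the membrane attack complex, stood at 83.1%, and C2 and Cfb, neighbouring genes of the convertases, at 90.3% and 94.3%. The 2 genes named C4a stood at 132% and 169% and C4b at 93.8%, levels that are uncertain because of their near-identical sequences. Of the 14 genes in the complement and acute phase list, 11 rose and 1 fell in Tg. Cfd, a complement protease made by fat cells, had 51.0, 36.0, 8.91 and 11.8 CPM in P18 Tg replicates 1 to 4, the same order of libraries as the adipocyte sums.

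Glucocorticoid-responsive and clock genes gave 5, which all rose in Tg and overlapped with Wt at P18. Tsc22d3, a glucocorticoid-induced leucine zipper, had 24.6 to 27.6 CPM in P6 Tg and 110, 174, 170 and 209 in P18 Tg, against 198, 180, 252 and 338 in P18 Wt (log2 fold change in Tg 2.66, standard error 0.19, adjusted p = 2.7e-10, edgeR). The other 4 stood at 79.6% (Errfi1), 81.2% (Pdk4), 103% (Sgk1) and 113% (Per1). In P18 Tg, replicates 3 and 4 were the highest in Errfi1, Sgk1 and Per1, and P18 Wt replicate 4 was the highest Wt library in all 5. Of the 27 tested genes in the list, 21 rose and 1 fell in Tg, with a median log2 fold change of 1.12.

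**Figure D4:**
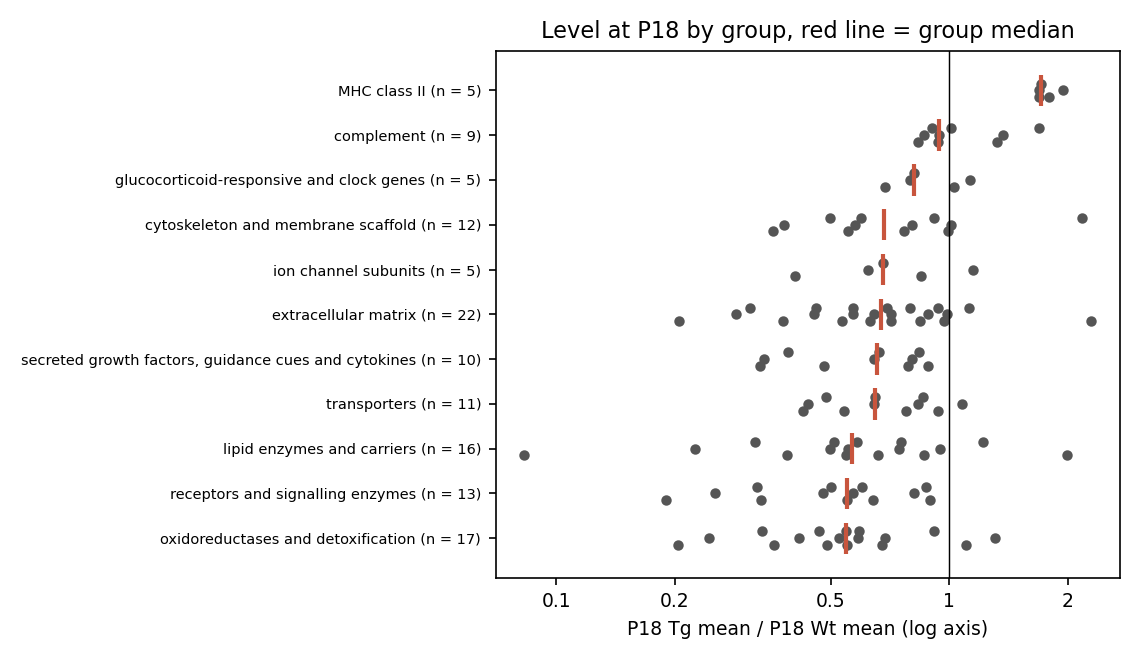
Ratio of the P18 Tg mean to the P18 Wt mean (x axis, log scale) for the genes of each role group (y axis). Points are genes and red lines group medians, which run from 0.547 in oxidoreductases to 1.71 in MHC class II genes.

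Of the genes outside these groups, Fam163b varied most between libraries. It had 87.2, 7.59, 110 and 95.1 CPM in P18 Wt, so that replicate 2 stood far below the others, and 16.1, 0.189, 8.55 and 0.0696 in P18 Tg. The Tg range at P18 included the range at P6 (0.677 to 0.985), and its called rise (log2 fold change 2.85, standard error 0.91, adjusted p = 0.017, edgeR) was lost without P18 Tg replicate 1 (1.83, adjusted p = 0.14). Tmem130 (22.0% of Wt) and the calcium sensor gene Vsnl1 (22.6%) were low in every P18 Tg library, with 2.16 to 2.99 and 5.61 to 6.35 CPM against 10.5 to 11.9 and 22.7 to 30.2 in Wt. Cpxm2, a carboxypeptidase-like secreted protein, rose from 1.64 to 2.66 CPM in P6 Tg to 83.4, 86.2, 76.3 and 109 in P18 Tg and overlapped with Wt. Cst3, a protease inhibitor, stood at 68.2%, the serpin gene Serpine2 at 56.8% and Fgl2, which encodes a fibrinogen-like protein, at 86.2%. S100a4 (147%), Scube1 (145%) and Hspa2 (119%) lay above Wt in all 4 Tg libraries.

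The genes were also divided by their course between E21 and P6 in Wt, a division that uses means which chose the genes and is a description. In Wt, 81 of the 188 had a P6 mean at least 2 times the E21 mean, in 67 it was 1 to 2 times the E21 mean, and 40 had a lower mean at P6 than at E21. The median ratio of Tg to Wt at P18 was 0.639 in the first of these sets, 0.682 in the second and 0.801 in the third. The 7 genes that were not called higher in Tg between P6 and P18 (6 not called and Scd1) were all among the 81.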

How the data were processed

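RNA of sciatic nerves from 24 rat samples, 4 in each of 6 groups, was sequenced. The authors aligned reads to rn6 with Bowtie2 2.0.2 through RSEM 1.2.29, after base calling with CASAVA 1.8.2 per the submitters' processing notes, and deposited RSEM expected counts per gene, in which reads matching more than 1 gene are shared out (12.5% to 17.9% of all genes' values in a library, zeros included, had a fractional part of any size). Expected counts were rounded, scaled by TMM and tested in edgeR 4.0.16 (R 4.3.3) with quasi-likelihood F tests in 1 model of 6 groups over the 15951 genes whose mean normalized count was 5 or more. P-values were adjusted by Benjamini-Hochberg with a threshold of 0.05. Standard errors were obtained as the log2 fold change over the root of its F value. Medians of log2 ratios of group means used 0.1 CPM as pseudocount. Groups came from the labels, and 0 columns were unused. The study names DESeq2, which served as an alternative (1.42.0).

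The late-onset genes, the gene lists and the promoter motifs were chosen with earlier results of these data known, and so were the role groups, which hold 125 of the 188 genes. Genes were named by rule: Slc22a3, the 8 of highest P18 Wt CPM, the 8 of largest rise in Wt, the 8 lowest and 8 highest in P18 Tg relative to Wt, the 6 largest called rises and falls in Tg, genes at the limit and genes of the lists. Others were chosen after their values were seen, for their role or for not being called. The tests were tested on simulated data. All 36 pairs of libraries within groups differed by more than sampling noise (chi-square per degree of freedom 7.08 to 53.7). Depth limits the precision of genes near 0 most. Replicate numbers did not pair the Tg libraries of different ages. Alternatives were DESeq2, Tg libraries alone, other size factors, other filters, a replicate block, other limits of the rule and leaving out each library. Levels are printed to 3 significant digits where they are values of single libraries. Figures were drawn with matplotlib.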

Additional observations from a re-analysis of the deposited data

Results flagged for a closer look

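Among 321 groups of 4 libraries examined for a library far from the other 3 in a named late-onset gene, 17 met Dixon's criterion, close to the 1 in 20 that chance gives. In P18 these were Scd1 in Wt replicate 3 (468 CPM, others 276 to 309), Sgk1 in Wt replicate 4 (408, others 247 to 271), C2 in Wt replicate 3 (25.2, others 11.8 to 12.7) and the C4a gene ENSRNOG00000047657 in Tg replicate 3 (15.6, others 25.6 to 26.6). At P6 they were Scd1 in Tg replicate 1 (42.3 CPM, others 147 to 161), Cidec in Wt replicate 4 (12.8, others 2.94 to 4.05), Dcn in Wt replicate 4 (824), Cpxm2 (1.64) and Fmod (8.60) in Tg replicate 1, and Lrp2 (1.62) and RT1-Bb (3.35) in Tg replicate 3. At E21 they were Fgl2 (106) and Cfd (3.24) in Wt replicate 2, Serpine2 (111) and Per1 (86.9) in Tg replicate 1, and Aldh1a1 (1.55) and Slc6a13 (3.49) in Tg replicate 2.

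Scd1 moved in opposite directions in the libraries of the 2 labels. Its log2 change from P6 to P18 was -2.17 in Tg, while in Wt it rose, which is how it was chosen. The difference between the labels was not tested. The adipocyte sum of P6 Wt replicate 4, the library that stood apart in Cidec, was 1230 CPM, against 444 to 675 in the other P6 Wt libraries, and that library was also the highest P6 Wt library in Scd1 (163 CPM, others 61.1 to 98.5). P6 Tg replicate 1, which stood apart in Scd1, had an adipocyte sum of 717 CPM, against 1040 to 1210 in the other P6 Tg libraries. The part of fat cells in these values was not tested.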

How the results depend on the processing

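The calls within Tg kept their counts within 1.5 times under every alternative run. Shares called over all genes tested were taken for the main fit only. For P6 to P18 the count of genes called higher was 180 or 181 under the other tests, scalings and filters and 176 to 182 when a library was left out, and Scd1 was the gene called lower in each of these fits. Among the Tg libraries, which the tests compared, replicate numbers did not pair the samples (correlations of same-numbered libraries of different ages from -0.148 to 0.0998), and with a replicate block the counts were 181 higher and 1 lower for P6 to P18, 187 and 0 for E21 to P18, and 123 and 17 for E21 to P6. Of the 188 late-onset genes, 179 kept their call from P6 to P18 in all fits, 7 lost it in at least 1 (Thrsp, Lrp2, Fam163b, Rapsn, Ptpru, Cyp2j4 and Pcsk6) and 2 gained it. Thrsp lost it also in DESeq2 (log2 fold change 2.16, adjusted p = 0.063), and Cidec (1.16, adjusted p = 0.034) and Aox3 (0.74, adjusted p = 0.0098) were called higher without P18 Tg replicate 3. Leaving out P18 Tg replicate 1 lost the most calls, those of Fam163b, Rapsn, Thrsp, Ptpru and Cyp2j4.

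The set itself depends on its limits and on the scaling. A fold limit of 2 gave 394 genes, 203 of which met it in Tg, with a median log2 rise in Tg of 1.2 and 194 genes below Wt without overlap at P18. A limit of 4 gave 113, 54, 2.15 and 52. In the main scaling, which both limits used, 11.0% of all genes tested lay below Wt without overlap. With total counts only, 136 genes were chosen, all among the 188, the median log2 ratio at P18 was -0.353 and 51 genes lay below Wt without overlap. With the 188 genes held fixed, an alternative chosen after seeing the data, the ratio was -0.354 and the count 72. The share of all genes tested that lay below Wt with total counts was not taken. Without each library in turn the set held 184 to 195 genes. Depth limits genes with few counts at P6, such as Myoc and Slc22a3, whose fold changes are imprecise at their lower end.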
